A study of Mus musculus with 6 samples.

Results

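The laminin, nidogen and integrin genes of mouse embryonic stem cells (ESCs) were described in wild-type (WT) and *Alkbh1*-/- cells. Members were all genes whose symbol in the table of probe sets is that of a laminin chain, a nidogen or an integrin chain. A probe set is a group of short array oligonucleotides that reads 1 transcript or a few related ones. The symbols selected 41 of 33142 probe sets, which stand for 29 of 14411 genes. Of these, 8 encode matrix proteins (6 laminin chains and 2 nidogens) and 18 encode integrin chains. The other 3, *Itgb1bp1*, *Itgb1bp2* and *Itgb4bp* (now *Eif6*), share letters with the integrins but encode no integrin chain, and were kept apart. Each gene was represented by its brightest probe set.

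Laminins are cross-shaped trimers of an alpha, a beta and a gamma chain, and they polymerize into the sheet on which a basement membrane is built. Nidogens bind the gamma chain and link this sheet to type IV collagen. Integrins are alpha-beta receptor pairs that bind these and other matrix proteins and couple them to the actin cytoskeleton. In the blastocyst and in cultured ESCs, laminin chains encoded by *Lama1*, *Lama5*, *Lamb1* and *Lamc1* form the early basement membrane, and the integrin made of the *Itga6* and *Itgb1* chains is a main laminin receptor.

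The study compared undifferentiated ESCs of both genotypes at passage 8 and day 0, each on 3 Affymetrix mouse arrays, and only the comparison of the genotypes was analysed here. Both genotypes were C57BL/6, received no treatment before RNA extraction, and were kept with leukemia inhibitory factor on irradiated mouse embryonic fibroblasts, so that the RNA may hold a share from these feeder cells. ALKBH1 is a dioxygenase of the AlkB family, and *Alkbh1*-/- cells lack it through germline disruption of both alleles. The sample names give a single line for each genotype and name no separate cultures. Genotype and cell line can therefore not be told apart, and the p-values measure the spread between these arrays, which may be technical.

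Several facts of the whole comparison bear on the members. *Alkbh1* itself (1434660_at) had a log2 value of 9.57 in WT and 4.69 in *Alkbh1*-/- cells, a log2 difference of −4.89 (standard error 0.17). All differences are *Alkbh1*-/- minus WT, on the log2 scale. The lines also differed in sex-linked genes. The Y-linked *Eif2s3y* fell from 9.55 to 3.90, and 40.5% of the probe sets of X-linked genes were called higher, against 2.85% of the probe sets without X- and Y-linked genes. No laminin, nidogen or integrin gene lay on X or Y (0 of 35). The part of the sex-linked difference in the values below was not tested, and it cannot be told apart from the genotype. Of 10 stem cell markers, all were above the median brightness, and 9 were higher in *Alkbh1*-/- cells. Over all 16361 genes named with identifiers, 54.7% had a negative difference. *Nanog* (1.10) and *Klf4* (0.67) were called, against 4.31% of these genes called higher. *Utf1* was the marker with a negative difference (−0.49, adjusted p = 0.0369, limma) and was not called.

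A probe set was called when the adjusted p of limma's moderated test was under 0.05 and the linear fold was over 1.5, which is a log2 difference of 0.58. By this call 6.99% of all probe sets differed, and with 1 probe set a gene 7.55% of 14411 genes differed (4.1% higher and 3.45% lower in *Alkbh1*-/- cells). Of the 26 matrix and integrin genes, 4 were called (15.4%). *Nid1* rose, and *Lamb1*, *Itgb5* and *Itgb7* fell. All 4 were among the 12 members at or above the median brightness of all probe sets, where 9.35% of all genes were called. The median log2 difference was −0.04 over the 8 matrix genes and −0.03 over the 18 integrins, against −0.01 over all genes. No test was run on these shares, and a count of 4 is too small to set the members apart from other genes.

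**Figure D1:**
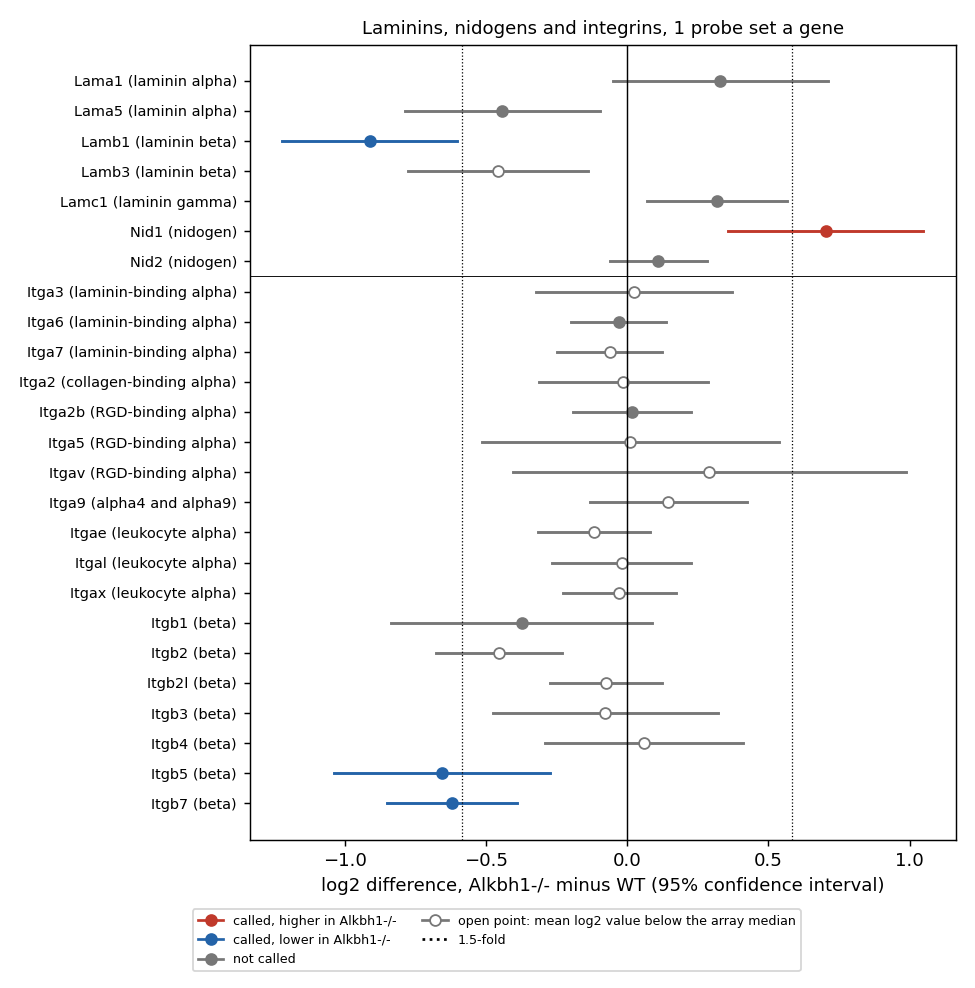
Log2 difference between *Alkbh1*-/- and WT ESCs for the laminin, nidogen and integrin genes reported by name, each by its brightest probe set, with the 95% confidence interval as a bar. *Lamb1*, *Itgb5* and *Itgb7* lie to the left of 0 and past the 1.5-fold line, *Nid1* to the right, and the points of most integrin alpha chains lie near 0.

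The promoters of the 3 genes that were called by symbol and that several probe sets read are shown. These are the start regions of transcripts the results turn on. Each line gives the 250 bases before the annotated start on the gene's strand, from RefSeq on GRCm38.p6. *Lamb1* lies at chr12:31265043-31265292 on the plus strand, *Nid1* at chr13:13437352-13437601 on the plus strand, and *Itgb5* at chr16:33829415-33829664 on the plus strand. Capitals mark matches, on either strand, to the E-box CANNTG or the GC box GGGCGG.
Lamb1: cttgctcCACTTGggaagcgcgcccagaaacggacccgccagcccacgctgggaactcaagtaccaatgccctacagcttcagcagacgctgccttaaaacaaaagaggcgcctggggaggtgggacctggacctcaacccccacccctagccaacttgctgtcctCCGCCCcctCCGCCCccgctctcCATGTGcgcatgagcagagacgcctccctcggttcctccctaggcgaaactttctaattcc
Nid1: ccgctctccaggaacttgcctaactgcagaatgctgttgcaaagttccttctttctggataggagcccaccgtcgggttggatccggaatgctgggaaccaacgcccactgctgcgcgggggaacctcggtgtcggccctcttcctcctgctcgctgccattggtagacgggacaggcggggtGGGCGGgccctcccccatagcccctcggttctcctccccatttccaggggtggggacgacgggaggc
Itgb5: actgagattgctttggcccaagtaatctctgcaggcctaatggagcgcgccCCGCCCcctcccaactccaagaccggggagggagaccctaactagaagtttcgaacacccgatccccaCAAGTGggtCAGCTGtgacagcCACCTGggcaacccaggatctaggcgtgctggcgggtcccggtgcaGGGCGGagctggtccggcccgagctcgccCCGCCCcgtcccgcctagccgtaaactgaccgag
The *Lamb1* window held a pair of GC boxes that begin 84 and 75 bases before the start, and E-boxes at 243 and 61 bases. The *Nid1* window held 1 GC box, 67 bases before the start, and no E-box. The *Itgb5* window held 3 E-boxes, at 131, 122 and 109 bases, and 3 GC boxes.

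Promoters were matched for 21 of 35 member genes (23 promoters). Among those not matched were *Itga6*, *Itga7*, *Itgae*, *Itgal*, *Itgb2*, *Itgb3*, *Itgb4*, *Lama1*, *Lama3*, *Lama4*, *Lamc1*, *Lamc3* and *Nid2*. An E-box was found in 17 of the 23, a share of 73.9% against 66.2% of all 32851 promoters. A GC box was found in 9, a share of 39.1% against 32.7%. The AP-1 motif TGANTCA was found in 1 member promoter, against 6.75% of all promoters. The GATA motif, spelled AGATAA, was found in 1, against 9.99%. The Sox motif was searched as ACAATG and was also found in 1, against 10.7%. Member promoters had a median GC content of 58.4% and a median of 10 CpG, against 52.4% and 6 over all promoters. These matches describe the letters of the windows. A short motif such as the E-box occurs in most windows of this length, and overlap with other motifs was not removed.

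Among the matrix genes, *Lamb1*, which encodes the beta chain shared by the early embryonic laminins, fell. Its probe set by symbol (1451241_at) had a mean log2 value of 8.14 in WT and 7.23 in *Alkbh1*-/- cells, with a recovered SD within genotypes of 0.18 (n = 3 arrays each). The log2 difference was −0.91 (standard error 0.13, 95% interval −1.22 to −0.60, adjusted p = 0.00516, limma), a 1.88-fold fall. The gap between the means was thus larger than the SD between arrays. The tables used here give no array on its own, so whether the arrays of the genotypes overlap cannot be read from them.

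A further pair of probe sets carries the *Lamb1* gene identifier without a symbol, and both are brighter. In 1424114_s_at the log2 value went from 10.76 to 9.86, a difference of −0.90 (standard error 0.08, adjusted p = 0.000720, limma). In 1424113_at the difference was −0.91 (standard error 0.08, adjusted p = 0.000934, limma). These 3 probe sets thus gave nearly the same fall. The geometric mean intensity, from the other deposited table, is on a linear scale. It went from 1729 to 929 in 1424114_s_at and from 282 to 150 in 1451241_at. That table was joined by value. Its intensities, here and below, thus restate the same group means and are no second measurement. The remaining pair, 1434378_a_at and 1434379_at, has the old symbol of the gene and no identifier. Both were below the median brightness, and their differences were −0.14 and −0.15 with intervals that include 0. Their gene could not be checked. *Lamb1* lies on chromosome 12, as does *Alkbh1*. Of the probe sets of genes on this chromosome, 4.68% were called lower and 2.39% higher, against 3.13% and 3.86% of all probe sets. The share called lower includes probe sets of *Alkbh1* and *Lamb1* themselves.

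*Nid1*, which encodes nidogen-1, rose. The log2 value of 1416808_at was 9.79 in WT and 10.49 in *Alkbh1*-/- cells, with a recovered SD of 0.21 (n = 3 each). The difference was 0.70 (standard error 0.15, 95% interval 0.36 to 1.05, adjusted p = 0.0220, limma), a 1.63-fold rise. The second probe set, 1448469_at, rose by 0.67 (standard error 0.14, adjusted p = 0.0190, limma). In linear terms the geometric mean intensity went from 884 to 1437 in the first and from 167 to 267 in the second. A dim further probe set (1441519_at) had a difference of 0.59 but a standard error of 0.38, and was not called. The interval of the fold of *Nid1* reaches from below to above the 1.5-fold line, so that the size of the rise is known only roughly.

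*Nid2*, the other nidogen, was not called. Its log2 value was 9.49 in WT and 9.60 in *Alkbh1*-/- cells, a difference of 0.11 (95% interval −0.06 to 0.28, adjusted p = 0.391, limma). Its recovered SD of 0.04 was among the lowest of all members, and the whole interval lies within 1.5-fold. The interval of *Nid2* lies below that of *Nid1*. The difference between the genes was not tested.

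The laminin alpha chains carry the receptor-binding domains, and none was called. *Lama1*, a chain of the embryonic basement membrane, went from 7.47 to 7.80, a difference of 0.33 (95% interval −0.05 to 0.71, adjusted p = 0.247, limma). *Lama5*, the broadly expressed alpha chain, went from 9.85 to 9.41, a difference of −0.44 (95% interval −0.79 to −0.10, adjusted p = 0.100, limma). Its second probe set gave −0.40. The intervals of *Lama1* and *Lama5* share no value and the signs of the differences are opposite, but neither gene passed the test and their contrast was not tested.

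*Lamc1*, a gamma chain and the partner of *Lamb1* in most laminins, differed by 0.32 in the probe set with its symbol (95% interval 0.07 to 0.57, adjusted p = 0.101, limma). A brighter probe set named by its identifier (1423885_at) differed by 0.10 (95% interval −0.12 to 0.32). *Lamb3*, a beta chain of epithelial laminins, was below the median brightness, with a difference of −0.46 (adjusted p = 0.0732, limma). Within the trimer of *Lama1* or *Lama5*, *Lamb1* and *Lamc1*, only the beta chain was called. The differences among the chains were not tested against each other.

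Gene identifiers added 5 laminin chains. *Lama3*, the alpha chain of epithelial laminins, went from 7.16 to 7.70, a difference of 0.53 that passed the adjusted p (0.0302, limma) and missed the fold (1.45). By the adjusted p alone, 7.41% of genes were higher. *Lama4*, a chain of vessel and mesenchymal basement membranes, was dim and differed by −0.55 (adjusted p = 0.0754, limma). *Lama2*, *Lamb2* and *Lamc3* had differences from −0.17 to −0.07, and none passed the test. With identifiers used, 2 of 13 matrix genes were called, again *Lamb1* and *Nid1*, against 8.21% of 16361 genes (4.31% higher and 3.9% lower).

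**Figure D2:**
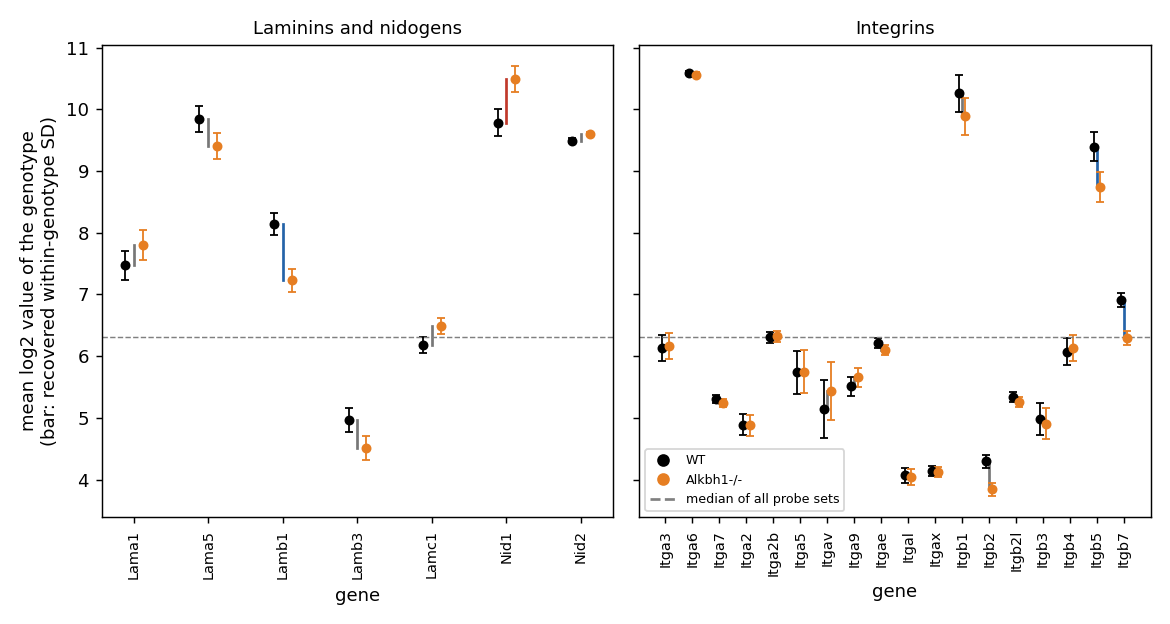
Mean log2 value of each gene reported by name in WT (black) and *Alkbh1*-/- ESCs (orange), by the brightest probe set with the gene's symbol. Bars show the SD within genotypes recovered from the fit, a coloured line joins the means of a called gene, and the dashed line is the median of all probe sets at 6.31. Levels are to be compared within a gene, since probe sets differ in their response. Of 18 integrins, 13 lie below the dashed line.

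Among the integrins, 5 of 18 genes were at or above the median brightness: *Itga6*, *Itga2b*, *Itgb1*, *Itgb5* and *Itgb7*. Of the 7 beta chains 2 were called, both lower, and of the 11 alpha chains 0 were called by limma, beside 7.55% of all genes called and 3.45% lower. At an unadjusted p under 0.05, 0 alpha chains passed, against 15.8% of all genes lower and 13.3% higher. These counts are by symbol, and of these alpha chains only *Itga6* and *Itga2b* were at or above the median brightness. Gene identifiers added 4 alpha chains. Of these *Itga1* was called lower (−1.62), *Itga4* and *Itga10* passed only the unadjusted p, and *Itga8* passed neither. The beta and alpha chains were not tested against each other. *Itgb5* encodes the beta chain that pairs with the alpha v chain in a vitronectin receptor. Its brightest probe set (1417533_a_at) went from 9.40 to 8.74, with a recovered SD of 0.24 (n = 3 each). The difference was −0.66 (standard error 0.16, 95% interval −1.04 to −0.27, adjusted p = 0.0406, limma), a 1.58-fold fall. The other 3 probe sets of the gene gave differences of −0.78, −0.66 and −0.67. Of the 4, 3 were called, and 1417534_at had an adjusted p of 0.0555 (limma). The geometric mean intensity of the brightest went from 674 to 428. All 4 probe sets thus had a difference of at least 1.5-fold in the same direction, with standard errors above the array median of 0.107.

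*Itgb7* encodes the beta chain that pairs with the alpha 4 and alpha E chains, mostly in lymphocytes. Its only probe set (1418741_at) went from 6.92 to 6.30, with a recovered SD of 0.11 (n = 3 each). The difference was −0.62 (standard error 0.10, 95% interval −0.85 to −0.39, adjusted p = 0.00717, limma), a 1.54-fold fall, and the geometric mean intensity went from 121 to 78.6. Its partners were dim: *Itgae* differed by −0.12 (adjusted p = 0.431, limma), and *Itga4*, named by its identifier, by −0.29 (adjusted p = 0.163, limma). *Itgb2*, the beta chain of leukocyte integrins, was dim as well. It differed by −0.45 and passed the adjusted p (0.0220, limma) but not the fold (1.37). By the adjusted p alone, 7.22% of genes were lower. Of 10 leukocyte markers 8 were found, 6 of them below the median brightness. A negative difference was seen in 5 of the 8, against 54.7% of all genes. Their summed intensity was 505 in WT and 509 in *Alkbh1*-/- cells. This sum holds opposite differences, such as those of *Cd68* (0.70) and *Lyz2* (−0.45, not called). By the call *Cd68* alone rose and 0 fell, against 4.31% and 3.9% of all genes.

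The alpha chains grouped as laminin-binding, and *Itgb1*, were not called. *Itga6*, the alpha chain of the main ESC laminin receptor, had a log2 value of 10.59 in WT and 10.56 in *Alkbh1*-/- cells, a difference of −0.03 (standard error 0.07, 95% interval −0.20 to 0.14). A second probe set gave −0.04. A change of *Itga6* by 1.5-fold lies outside both intervals. *Itga3* and *Itga7*, the other laminin-binding alpha chains, differed by 0.02 and −0.06 in the probe sets with their symbols, and a brighter *Itga3* probe set named by its identifier differed by −0.20 (95% interval −0.43 to 0.04). *Itgb1*, the beta chain of these receptors, went from 10.26 to 9.89. Its difference was −0.37 (standard error 0.20, 95% interval −0.83 to 0.09, adjusted p = 0.280, limma), and a second bright probe set gave −0.37 as well. The interval of *Itgb1* reaches past 1.5-fold, so a fall of that size lies within it, as does no difference.

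The alpha chains that bind the RGD peptide motif of fibronectin and vitronectin gave no call (0 of 3 by limma, 0 at an unadjusted p under 0.05). Over all genes 7.55% were called, and 15.8% were lower and 13.3% higher at the unadjusted p. *Itga2b*, the platelet alpha chain, differed by 0.02 (95% interval −0.19 to 0.23). *Itga5*, the alpha chain of the main fibronectin receptor, differed by 0.01, but with an interval from −0.51 to 0.54. Its 3 dimmer probe sets differed by −0.32, −0.22 and −0.18, and none was called. *Itgav*, the partner of *Itgb5*, differed by 0.29 in the dim probe set with its symbol and by −0.24 in a bright probe set named by its identifier (1452784_at, 95% interval −0.77 to 0.28). The signs of *Itga5* and *Itgav* thus depend on the probe set, and no probe set of either was called. The leukocyte alpha chains *Itgae*, *Itgal* and *Itgax* and the other dim chains had differences between −0.45 and 0.29. Of the 22 matrix and integrin genes not called, 16 had their whole interval within 1.5-fold, and for 6 it reached past that line.

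**Figure D3:**
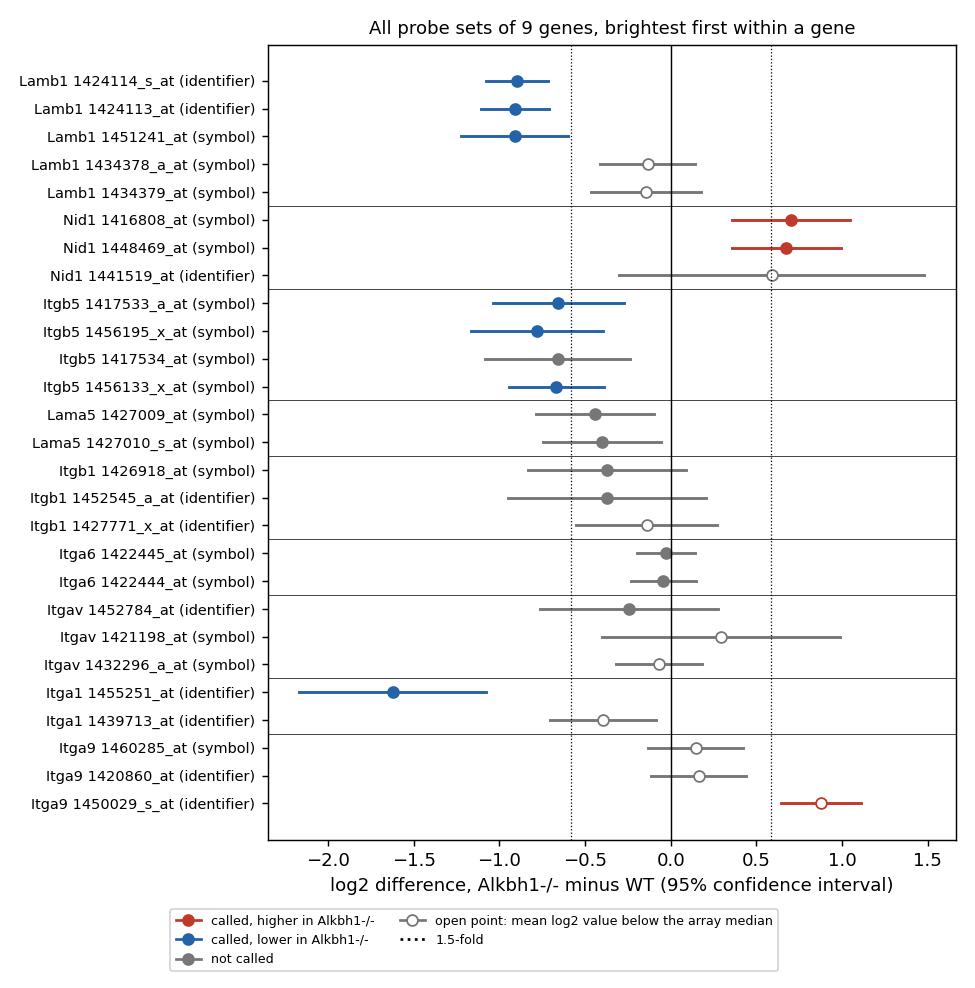
Log2 difference with its 95% confidence interval for all probe sets of 9 genes, named by symbol or by gene identifier. The 3 bright *Lamb1* probe sets cluster near −0.90 and the 4 of *Itgb5* between −0.78 and −0.66, whereas *Lamb1*, *Itga1* and *Itga9* each hold probe sets whose intervals share no value.

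Identifiers added 31 probe sets, among them 2 of *Itgb3bp*, which encodes no integrin chain. They also brought 4 further integrins, *Itga1*, *Itga4*, *Itga8* and *Itga10*. *Itga1*, a collagen- and laminin-binding alpha chain found in mesenchymal cells, had the largest fall of all member probe sets. Its brighter probe set (1455251_at) went from 7.17 to 5.54, with a recovered SD of 0.36 (n = 3 each). The difference was −1.62 (standard error 0.23, 95% interval −2.17 to −1.08, adjusted p = 0.00483, limma), a 3.08-fold fall, and the geometric mean intensity went from 144 to 46.6. The dim second probe set (1439713_at) differed by −0.39 (adjusted p = 0.102, limma). The direction was shared, and the intervals of the pair share no value. *Itga8* and *Itga10* differed by −0.45 and 0.36, and neither was called.

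*Itga9*, an alpha chain that binds tenascin-C and osteopontin, showed another split. Of its 3 probe sets, all below the median brightness, 1450029_s_at went from 4.58 to 5.45, a rise of 0.88 (standard error 0.10, adjusted p = 0.00178, limma). The other 2 differed by 0.15 and 0.16 and were not called. The suffix _s_at marks probes that can bind several transcripts. Among others, the brightest *Lamb1* probe set (1424114_s_at) and the second *Lama5* probe set (1427010_s_at) have this suffix too. Over all members, with the integrin-binding genes *Eif6* and *Itgb3bp* counted in, 21 genes had several probe sets. In 14 all differences had the same sign, and in 18 all intervals shared a value. The exceptions were *Lamb1*, *Itga1* and *Itga9*. With identifiers used, 3 of 22 integrins were called, all lower, against 3.9% of all genes lower by the call. Of the 35 matrix and integrin genes, 25 had a negative difference, against 54.7% of all genes, and their median was −0.12 against −0.02.

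The other genes of the basement membrane were set beside the laminins by a list of 30, of which 25 were found. Of these 21 had a negative difference, as had 54.7% of all 16361 genes. By the call 0 rose and 3 fell, against 4.31% and 3.9% of all genes: *Frem2* (−2.45), a matrix protein of the epithelial basement membrane, *Smoc1* (−0.73), a calcium-binding matrix protein, and *Sdc4* (−0.67), a heparan sulfate co-receptor of integrins. *Cd9*, a tetraspanin that associates with laminin-binding integrins, was higher by 0.43 and passed the adjusted p alone (0.0249, limma). The core partners of laminin were not called. Type IV collagen genes *Col4a1* and *Col4a2* differed by −0.31 and −0.38, perlecan (*Hspg2*) by −0.05, agrin (*Agrn*) by −0.07 and dystroglycan (*Dag1*) by −0.24. The median of the list was −0.19. Its genes *Fbln2* and *Sparc* are also among the feeder fibroblast markers below.

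Among the ligands that integrins bind in place of laminin, 22 of 24 genes were found and 17 had a negative difference, against 54.7% of all genes. By the call 1 rose and 2 fell, against 4.31% and 3.9%. *Tgfb1* (−0.76), whose latent form binds alpha v integrins, and *Ccn2* (−0.68), a matricellular protein, fell. *Mfge8* (0.70), a secreted RGD protein bound by alpha v integrins, rose, and *Icam1* (0.45), a ligand of *Itgb2* integrins, passed the adjusted p alone. Fibronectin (*Fn1*, −0.38) and osteopontin (*Spp1*, −0.25) were bright and did not pass the test. The median of the list was −0.36. Its genes *Col1a1*, *Col1a2*, *Fn1* and *Thbs1* are also among the feeder fibroblast markers below. Of the 22, 9 had a standard error above the 95th percentile of all probe sets.

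On the cytoplasmic side, 40 of 41 genes of integrin activation and adhesion complexes were found, and 29 had a negative difference, against 54.7% of all genes. By the call 5 fell and 0 rose (limma), against 3.9% and 4.31% of all genes. At an unadjusted p under 0.05, 16 were lower and 1 higher, against 17% and 13.5%. The called genes were *Krt8* (−1.55), a keratin of simple epithelia, *Ptk2b* (−0.96), a focal adhesion kinase relative, *Zyx* (−0.86), an actin regulator of adhesions, *Plec* (−0.85), which links integrins to keratins, and *Bcar1* (−0.70), an adhesion scaffold. With the adjusted p alone, *Pxn*, *Ilk*, *Itgb3bp* and *Actn4* fell too, for 9 lower and 0 higher, against 7.98% lower and 7.41% higher over all genes. *Itgb3bp* is a centromere protein also named for binding an integrin tail. The talin and kindlin genes that switch integrins on were not called: *Tln1* differed by −0.26 and *Fermt2* by 0.08. *Ptk2*, the focal adhesion kinase, differed by −0.03. The median of the list was −0.17, against −0.02 over all genes.

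The 3 genes that matched by name were not called. *Eif6*, a ribosome assembly factor once named for binding the beta 4 chain, differed by −0.23 in its brightest probe set and by 0.14 in the other. *Itgb1bp1* and *Itgb1bp2*, which bind the beta 1 tail, differed by −0.01 and 0.01.

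Markers of feeder fibroblasts were set beside the members. Of 24 such genes 23 had a negative difference, with a median of −0.70 and a median standard error of 0.33. Of the 24, 0 were called by limma, against 8.21% of all genes. At an unadjusted p under 0.05, 10 were lower and 0 higher, against 17% and 13.5% of all genes. Their summed intensity was 32593 in WT and 21279 in *Alkbh1*-/- cells. Below the median brightness were 4 of them, the dimmest being *Fap* at a mean log2 value of 3.87. The lowest mean log2 value of all probe sets was 3.22. Of the 24, 19 had a standard error above 0.223, the 95th percentile of all probe sets. Their part in the falls of *Lamb1*, *Itgb5* and *Itga1* was not tested. Fewer cells of a type and less RNA per cell cannot be told apart in such bulk samples. The errors of the members differed. *Itga1* (0.23) and the *Itgav* probe set with its symbol (0.30) were above the 95th percentile, and the brighter *Itgav* probe set (0.22) was just below it. *Itgb1* (0.20) was at percentile 92.2 and *Itgb5* (0.16) at percentile 84.6. The *Lamb1* probe set with its symbol (0.13) was at percentile 70.7 and the brightest one (0.08) at percentile 9. *Itgb7* (0.10) was at percentile 38.7.

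**Figure D4:**
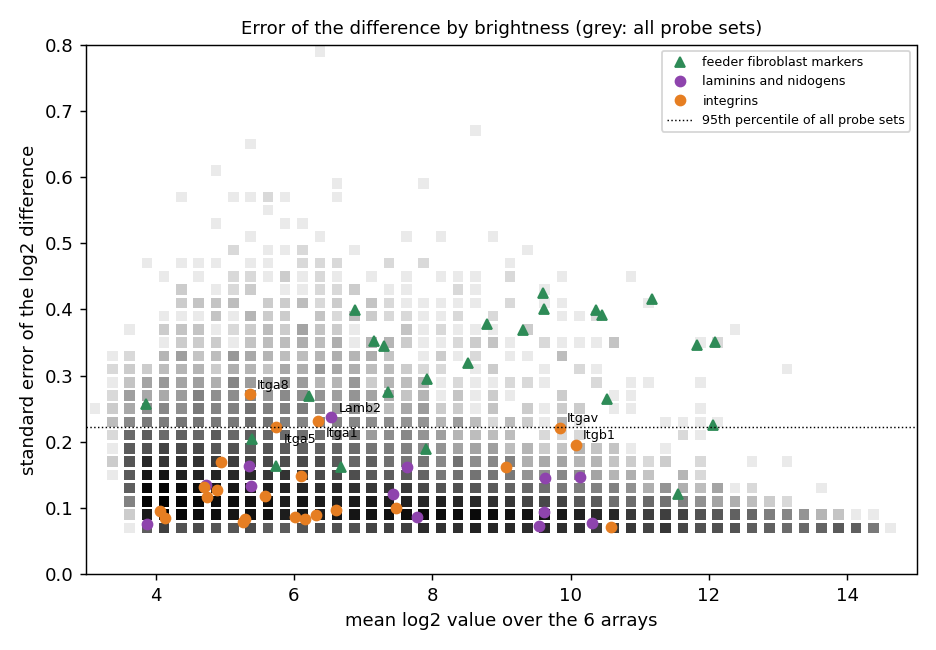
Standard error of the log2 difference against the mean log2 value over all 6 arrays, for laminins and nidogens (purple), integrins (orange) and feeder fibroblast markers (green), over all probe sets in grey. The dotted line is the 95th percentile, 0.223. Most fibroblast markers lie above it, whereas of the matrix and integrin genes *Lamb2*, *Itga1*, *Itga5* and *Itga8* do.

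Endoderm cells secrete laminins and nidogens in abundance, so their markers were set beside *Lamb1* and *Nid1*. Of 19 such genes 18 were found, 15 of them below the median brightness, and 8 were higher and 10 lower, with a median of −0.08. *Gata4* (0.21), *Gata6* (0.05) and *Sox17* (0.04) were dim and were not called. *Dab2* (−0.92), *Thbd* (−0.73) and *Amn* (−0.54) were lower and not called, and *Cubn* (−0.55) passed the adjusted p alone (0.0388, limma). By the call 1 rose and 1 fell, against 4.31% and 3.9% of all genes. *Sox7* rose by 0.88, and *Lrp2*, an endocytic receptor of visceral endoderm, fell by 2.07. At an unadjusted p under 0.05, 5 were lower and 1 higher, against 17% and 13.5% of all genes. The summed intensity of the list was 1170 in WT and 914 in *Alkbh1*-/- cells. Of 10 primed epiblast markers 8 had a negative difference, against 54.7% of all genes. By the call *Dnmt3b* (−1.48) and *T* (−0.86) fell and 0 rose (limma), against 3.9% and 4.31%. At an unadjusted p under 0.05, 4 were lower and 1 higher, against 17% and 13.5%. The part of these markers in the differences of the laminins and nidogens was not tested.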

How the data were processed

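RNA of undifferentiated ESCs was hybridised to Affymetrix 430 2.0 arrays, 3 for each genotype. The authors ran RMA over all arrays and deposited, for each of 33142 probe sets, the log2 difference and the mean log2 value. They deposited the moderated statistic as a score, whose sign was opposite to that of the difference for all probe sets, together with its p-value and adjusted p-value. A second deposited table, a class comparison, gives each genotype's geometric mean intensity, on a linear scale. Its identifiers were out of order, so it was joined by value within 0.0001. No value of a single array was analysed here, so the planned fit to single arrays was replaced by the authors' statistics. The direction was read from the named classes of the second table. The description that came with the tables names the wild-type class, and *Alkbh1* was looked at as well.

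Standard errors were computed as the difference divided by the moderated statistic, group means as the overall mean plus or minus the difference over 2, and 95% intervals from the recovered 7.14 degrees of freedom (limma 3.58.1, R 4.3.3, Python 3.11.15). The recovery was tested on simulated data. A call needed an adjusted p under 0.05 (Benjamini-Hochberg over all probe sets) and a linear fold over 1.5. The number of arrays limits the precision. Genes were named by the deposited symbol, updated through RefSeq. In an alternative chosen after seeing the data, they were named by the gene identifier. Of the 41 probe sets 39 had an identifier, and it named the same gene in 39. Over the table this held for 89.8% of 17570 probe sets. The members and lists were chosen with earlier results of these data known. Named were all called members, all at or above the median brightness, and up to 6 called genes of each list, except 1 uncalled member that is counted but not reported here. The uncalled genes of lists, and members named by identifier, were chosen after their values were seen.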

Additional observations from a re-analysis of the deposited data

How the results depend on the processing

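Of 8 matrix genes 2 were called, and of 18 integrins 2. With a log2 difference over 1.5 in size in place of the linear fold, the counts were 0 and 0. With an unmoderated Student test they were 0 and 1 (*Itgb7*), and with limma's treat against a 1.5-fold difference 0 and 0. At an unadjusted p under 0.05 of limma's moderated test, without a fold, 5 matrix genes and 3 integrins passed. Together these were 8 of 26 genes, against 4193 of all 14411 genes. With the dimmest probe set of each gene, 1 matrix gene (*Nid1*) was called. Without probe sets of the suffixes _s_at, _x_at and _a_at, 1 integrin (*Itgb7*) was. The other alternatives (no fold, unadjusted p, a variance trend, the brighter probe sets alone, and naming by identifier) gave 2 matrix genes and 2 or 3 integrins. For the 12 members at or above the median brightness, 58 recomputed values were compared, and 0 turned direction. Most of them changed only the test or the probe sets adjusted over, and so kept the deposited difference. Direction could turn only with the dimmest probe set or the mean over probe sets of a gene. A call was lost in 8 of the 58. These were Student's test for *Lamb1* (adjusted p = 0.0501), *Nid1* (0.108) and *Itgb5* (0.152), treat for all 4 called genes, and the dimmest *Lamb1* probe set (−0.15). The mean over the 3 *Lamb1* probe sets with its symbol was −0.40. Over these 58 values, all by symbol, the adjusted p of *Lamb1* ran from 0.00160 to 0.686, and those of *Nid1*, *Itgb5* and *Itgb7* from 0.00659, 0.0111 and 0.00487 to 1. With naming by identifier, *Lamb1* is read by 1424114_s_at, with an adjusted p of 0.000720 (limma). Why Student's test gave fewer calls was not tested. No paired analysis was possible because the tables carry no values of single arrays. For the same reason leaving out each replicate and another normalization were not run. The number of arrays limits the precision, and signal over background was not analysed here.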

Other observations

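Of the 72 probe sets named for a member or for *Itgb3bp*, by symbol or identifier, 18 had an entry in the class comparison when joined by value. Of these 18, 0 stood there under the identifier they have in the larger table. Over the whole class comparison, 4261 of 4326 entries were matched by value and 8 had the same identifier in both tables. A search for *Lamb1* or *Nid1* by identifier in that table would therefore return the values of other probe sets.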
